A study of Mus musculus with 15 samples.

Results

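Transcripts of 10 antioxidant genes were measured in the podocyte fraction of 3 groups of mice: young, aged with injections of control IgG2a, and aged with injections of an antibody that blocks PD-1 (aPD1ab). The genes were chosen by name, not by any measured value, although earlier results of these data were known. They were Nfe2l2, which encodes the transcription factor NRF2, with Nqo1, Hmox1, Gclc, Gclm, Txnrd1, Sod1, Sod2, Sod3 and Gpx3. All 10 were found among the 46078 genes of the deposited count table, and all 10 passed the filter on low counts in each comparison. All mice were male C57BL/6J. Young mice were 4 months old and uninjected, and aged mice were 21 months old. Aged mice were injected into the peritoneum each week for 8 weeks, at 12 mg/kg, with the rat antibody RMP1-14 against PD-1 or with its isotype control 2A3, although the titles of the aPD1ab samples give 47 days. Cells of the digested kidney cortex that bound anti-nephrin antibodies were retained on magnetic columns, and their mRNA was sequenced. The 13 libraries used, whose groups were read from the numbers in a figure of the study and not from the sample labels, were 5 young, 4 aged IgG2a and 4 aged aPD1ab, with 19912969 to 32717100 counted reads each, so that the lowest count of any of the 10 genes in a library was 216. One library, aged IgG2a replicate 1, stood apart from its group. On the first principal component (40.7% of the variance of log2 expression) it had a score of 16.7, and the other 3 IgG2a libraries had −84.5 to −71.7. Young libraries had scores of 24.7 to 41.4 there, and aPD1ab libraries −11.0 to 64.6. On the second component (18.8%) its score was −17.2, compared with −56.0 to −23.6 in aPD1ab and 25.8 to 46.0 in young libraries. The other 3 IgG2a libraries had 2.1 to 10.2. Tests involving that group are therefore given with and without this library. It was picked out by its expression in these same data. Adjusted p values without it can therefore be too small and are given as a description.

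NRF2 is held in the cytoplasm by KEAP1, an adaptor that hands it to a ubiquitin ligase for degradation. Oxidants and electrophiles modify KEAP1, and NRF2 then enters the nucleus, pairs with small MAF proteins and binds the antioxidant response element in front of genes for quinone reduction, heme breakdown, glutathione synthesis and thioredoxin reduction. The superoxide dismutases convert superoxide to hydrogen peroxide in the cytosol (SOD1), the mitochondrial matrix (SOD2) and the extracellular space (SOD3). GPX3 is the secreted glutathione peroxidase of plasma, for which the proximal tubule of the kidney is the main known source.

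The core of the antioxidant response element, TGACNNNGC, was looked for on both strands in the RefSeq promoters (GRCm38.p6), each covering 250 bases before and 50 bases after a start site. Such promoters were found for 7 of the 10 genes (Nfe2l2, Nqo1, Gclm, Txnrd1, Sod1, Sod2 and Gpx3), 9 promoters in all. The core occurred in 4 of these 9, compared with 12.4% of 32851 promoters of all genes. A match to these letters is a description of the sequence and no measure of NRF2 binding. The 4 stretches that hold it are shown 5′ to 3′ in the direction of the gene, up to the base before the start site or before the gene's own first annotated exon, with the core in capitals, so that the promoters can be set beside the levels described next.

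Nfe2l2 (chr2:75704664-75704913, minus strand): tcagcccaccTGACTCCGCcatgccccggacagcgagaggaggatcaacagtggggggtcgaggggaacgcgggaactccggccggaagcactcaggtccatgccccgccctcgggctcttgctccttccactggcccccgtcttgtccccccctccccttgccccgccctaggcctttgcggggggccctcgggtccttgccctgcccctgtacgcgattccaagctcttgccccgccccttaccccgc

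Gclm (chr3:122245307-122245556, plus strand): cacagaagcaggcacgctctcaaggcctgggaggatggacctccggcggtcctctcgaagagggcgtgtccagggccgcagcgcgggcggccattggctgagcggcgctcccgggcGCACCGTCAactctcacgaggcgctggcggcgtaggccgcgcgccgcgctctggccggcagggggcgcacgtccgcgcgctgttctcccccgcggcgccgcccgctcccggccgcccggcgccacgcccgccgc

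Txnrd1 (chr10:82858956-82859178, plus strand): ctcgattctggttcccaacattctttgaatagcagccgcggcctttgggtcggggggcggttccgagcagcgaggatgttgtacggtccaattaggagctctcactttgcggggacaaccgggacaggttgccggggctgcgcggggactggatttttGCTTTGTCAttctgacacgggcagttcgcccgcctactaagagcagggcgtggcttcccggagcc

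Sod1 (chr16:90220512-90220753, plus strand): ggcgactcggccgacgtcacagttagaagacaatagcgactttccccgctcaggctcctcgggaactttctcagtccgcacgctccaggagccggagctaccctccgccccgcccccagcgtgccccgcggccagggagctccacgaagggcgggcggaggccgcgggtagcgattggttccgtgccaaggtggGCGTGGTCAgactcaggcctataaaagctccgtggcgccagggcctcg

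In Nfe2l2 the core began 240 bases before the start site and ran in the direction of the gene. In Gclm, Txnrd1 and Sod1 it lay on the other strand, and its first printed base was 134, 92 and 56 bases before the start site. The Txnrd1 stretch belongs to 1 of 3 promoters listed for that gene. No match was found in the windows of Nqo1, Sod2 and Gpx3, which says only that these letters are not there.

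The fraction was checked against marker genes before the 10 genes were compared. The podocyte gene Nphs1 (nephrin) was read in every library, and none of the 10 podocyte markers was at 0 counts in any library. Summed over these 10 markers, the level was 899 to 1450 CPM (counts per 1000000 counts of the library, with TMM scaling) in young, 534 to 726 in aged IgG2a and 277 to 880 in aged aPD1ab libraries. Proximal tubule and macrophage markers summed to higher levels. The 10 proximal tubule markers summed to 9387 to 14341 CPM in young libraries, to 6894 CPM in IgG2a replicate 1 but 1312 to 2049 CPM in the other 3 IgG2a libraries, and to 7093 to 20186 CPM in aPD1ab libraries. The 10 macrophage markers summed to 1998 to 3627 CPM in young libraries, to 3261 CPM in IgG2a replicate 1 but 7179 to 9457 CPM in the other 3, and to 2407 to 5442 CPM in aPD1ab libraries. No marker of either list was at 0 in any library. In bulk libraries such as these, fewer cells of a type and less RNA per cell cannot be told apart.

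**Figure D1:**
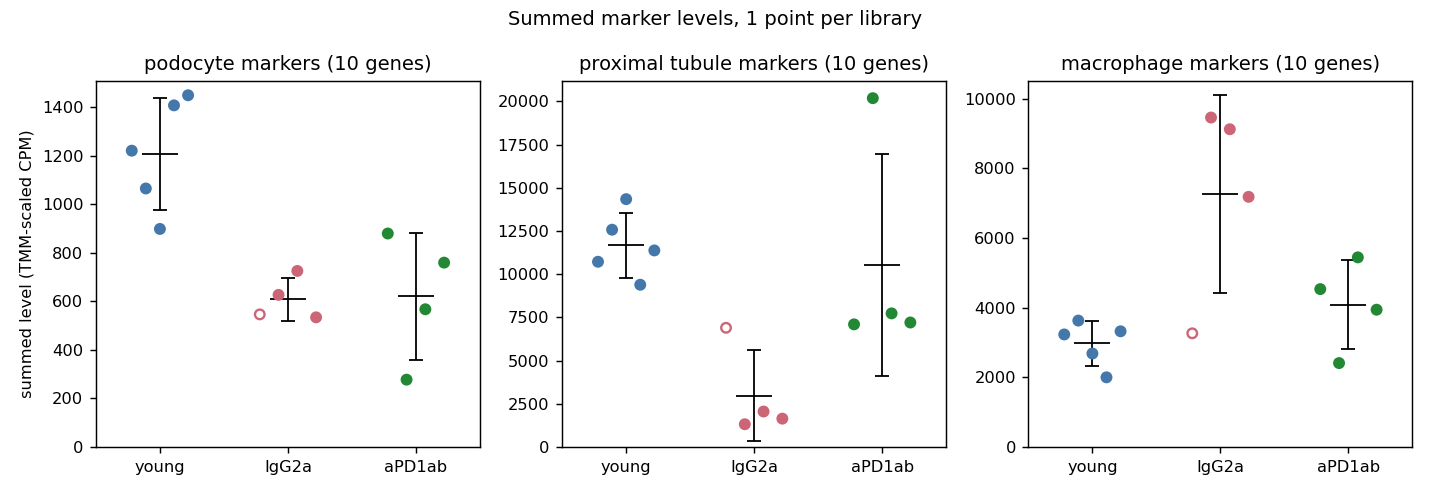
Summed level of 10 podocyte, 10 proximal tubule and 10 macrophage marker genes in each library, in TMM-scaled CPM on linear axes that start at 0. Points are libraries (5 young, 4 aged IgG2a, 4 aged aPD1ab), the open point is aged IgG2a replicate 1, and bars are the mean and SD. The other 3 IgG2a libraries had the lowest proximal tubule sums (1312 to 2049) and the highest macrophage sums (7179 to 9457), and aPD1ab replicate 2 had the highest proximal tubule sum (20186) and the lowest podocyte sum (277).

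Per kilobase of transcript, the scale on which genes can be set against each other, Gpx3 was the highest of the 10 in every group, at a mean of 4887 CPM per kb in young, 2327 in aged IgG2a and 11576 in aged aPD1ab libraries. Sod1 followed with 264, 210 and 395 CPM per kb, and Nfe2l2 was next with 65.4, 101 and 82.7. In young libraries the ranges of these 3 neighbours did not overlap. The order went on with Gclc (44.8), Sod3 (37.6), Hmox1 (30.0), Txnrd1 (29.9) and Sod2 (25.6 CPM per kb), in which each neighbour overlapped the next, and ended with Nqo1 (17.3) and Gclm (15.4), which overlapped each other but not Sod2. Gclm was the lowest in all 3 groups. Without IgG2a replicate 1 the means of that group were 1510 CPM per kb for Gpx3, 190 for Sod1 and 104 for Nfe2l2, in the same order. In both aged groups Hmox1 stood next to Nfe2l2, at 95.7 CPM per kb in IgG2a (98.6 without replicate 1) and 79.1 in aPD1ab libraries, and the ranges of these neighbours overlapped.

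The comparison of aged IgG2a with young mice sets old mice given the control antibody against young, uninjected mice. Age and injection cannot be told apart in it. Over all mapped libraries, 4 of the 10 genes passed the test (edgeR quasi-likelihood, adjusted p under 0.05 over all genes tested). Hmox1 and Nfe2l2 were higher, and 9.05% of all genes tested were called higher. Gclm and Sod3 were lower, and 8.38% of all genes were called lower. The median log2 fold change of the 10 genes was −0.33, and that of all genes was 0.04. Without IgG2a replicate 1, all 10 genes passed, 2 higher and 8 lower, while 22.1% of all genes were called higher and 23.5% lower. The median of the 10 was then −0.76.

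The comparison of aPD1ab with IgG2a in aged mice asks what the anti–PD-1 antibody changed. It shares its IgG2a libraries with the comparison above, so the directions in the 2 comparisons are not independent. Over all mapped libraries none of the 10 genes was called, and 0% of all 15530 genes were. At an unadjusted p under 0.05 there were 5 of the 10 and 4341 of all genes, and the lowest adjusted p of any gene was 0.102. Without IgG2a replicate 1, 7 of the 10 were called, all higher, and 17.1% of all genes were called higher. Over all libraries DESeq2 called 4 of the 10 (8.21% of all genes higher), limma voom with sample quality weights called 8 (20.9%), and edgeR with 1 fit of all 3 groups called 5 (11.4%), in each case all higher. The median log2 fold change of the 10 was 0.78 over all libraries and 1.06 without replicate 1.

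In the comparison of aPD1ab with young mice, which does not use the IgG2a libraries, 3 of the 10 genes were called, Hmox1, Sod1 and Gpx3, all of them higher, and 12.4% of all genes were called higher. The median log2 fold change of the 10 was 0.44. No gene of the 10 was called lower. Here too age and injection cannot be told apart.

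**Figure D2:**
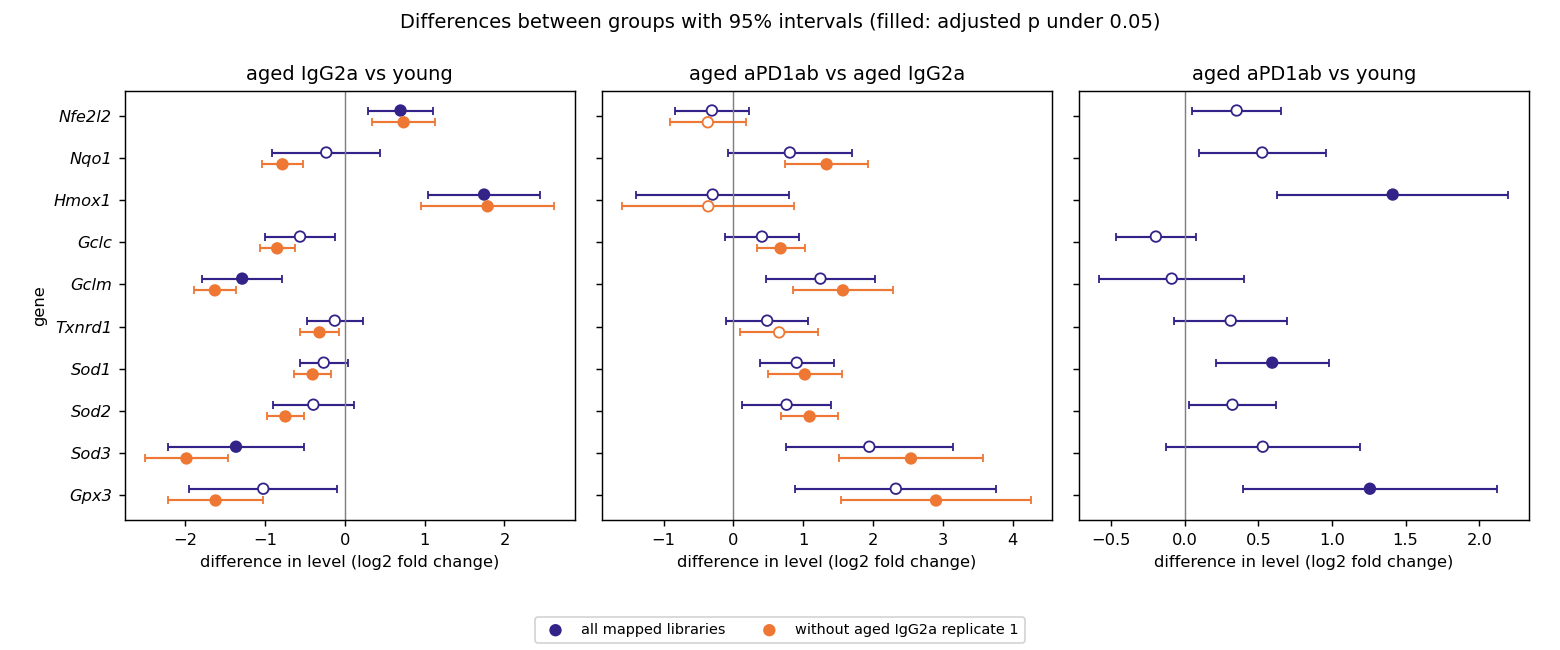
Log2 fold change of each of the 10 genes (vertical axis) in the 3 comparisons, with its 95% interval, over all mapped libraries (dark) and without aged IgG2a replicate 1 (orange), with filled points for genes called at an adjusted p under 0.05. The aPD1ab vs young comparison has no orange points since it holds no IgG2a library. For 8 genes the orange points lie farther below 0 in IgG2a vs young and farther above 0 in aPD1ab vs IgG2a than the dark ones, while Nfe2l2 and Hmox1 lie above 0 in the first comparison and below 0 in the second.

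Nfe2l2 (chromosome 2, 75675513 to 75704641, minus strand; positions here and later from GENCODE M21, GRCm38) is the transcription factor of the pathway. Its level was 156, 150, 148, 171 and 185 CPM in the young libraries, 229, 284, 318 and 166 CPM in IgG2a replicates 1 to 4, and 249, 162, 187 and 220 CPM in aPD1ab replicates 1 to 4. The first 3 IgG2a libraries were above every young library, and replicate 4 fell among the young ones. Without TMM scaling, IgG2a replicate 4 was at 121 CPM, below the young libraries at 153 to 200 CPM. The group means without that scaling were 218 CPM in IgG2a and 179 CPM in young libraries. Nfe2l2 was higher in IgG2a than in young libraries by a log2 fold change of 0.70 (SE 0.18, adjusted p = 0.0313), and by 0.74 without replicate 1 (SE 0.18, adjusted p = 0.00675). The call was lost when any young library, IgG2a replicate 2 or IgG2a replicate 3 was left out, and the adjusted p ranged from 0.00224 to 0.0967 over 14 alternatives. Against IgG2a the difference in aPD1ab libraries was −0.31 (SE 0.23, adjusted p = 0.401), and against young it was 0.35 (SE 0.14, adjusted p = 0.0897), neither of them called.

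Nqo1 (chromosome 8, 107388225 to 107403206, minus strand) encodes the quinone reductase whose transcript is a common readout of NRF2 activity. Its level was 26.0, 24.3, 31.8, 28.6 and 23.6 CPM in young libraries, 43.5, 14.3, 15.7 and 14.5 CPM in IgG2a libraries, and 30.4, 58.0, 33.8 and 31.1 CPM in aPD1ab libraries. IgG2a replicate 1 was above all young libraries and the other 3 were below all of them. With replicate 1 the log2 fold change of IgG2a against young was −0.23 (SE 0.30, adjusted p = 0.608). Without it Nqo1 was lower, at −0.78 (SE 0.12, adjusted p = 0.000359, with a range of 0.000359 to 0.893 over 14 alternatives). Against IgG2a, the aPD1ab libraries differed by 0.81 with replicate 1 (SE 0.39, adjusted p = 0.210) and were higher by 1.34 without it (SE 0.26, adjusted p = 0.0105, with a range of 0.00544 to 0.469 over 13 alternatives). In those 3 IgG2a libraries proximal tubule markers were also at their lowest and macrophage markers at their highest, and their part in the lower Nqo1 was not tested.

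Hmox1 (chromosome 8, 75093621 to 75100589, plus strand) encodes heme oxygenase 1, which breaks down heme and which macrophages that take up red cells are known to express. Its level was 37.2, 45.4, 48.0, 38.4 and 66.5 CPM in young libraries, 136, 173, 227 and 63.8 CPM in IgG2a libraries, and 84.8, 77.5, 81.5 and 252 CPM in aPD1ab libraries. Every aged library except IgG2a replicate 4 was above every young one. Hmox1 was higher in IgG2a than in young libraries by a log2 fold change of 1.74 (SE 0.32, adjusted p = 0.0118), and by 1.79 without replicate 1 (SE 0.36, adjusted p = 0.00454). This call was kept under all 14 alternatives, with a highest adjusted p of 0.0367. Hmox1 was also higher in aPD1ab than in young libraries, by 1.41 (SE 0.35, adjusted p = 0.0194). It was the only gene of the 10 whose ranges did not overlap in that comparison, and the share over all genes is not given here. Leaving out young replicate 4 raised the adjusted p to 0.0502, and without a filter on low counts it was 0.0582. It lay between 0.000727 and 0.0582 over 14 alternatives. Between aPD1ab and IgG2a the difference was −0.30 (SE 0.48, adjusted p = 0.713), with a 95% interval of −1.39 to 0.80.

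Macrophage markers were also higher in IgG2a than in young libraries, and the libraries can be set side by side. IgG2a replicates 2 and 3 had the highest macrophage sums of all 13 libraries, 9457 and 9120 CPM, and Hmox1 levels of 173 and 227 CPM, while the young libraries were low in both. In IgG2a replicate 4 the macrophage sum was 7179 CPM and Hmox1 63.8 CPM, and in IgG2a replicate 1 they were 3261 and 136 CPM. In aPD1ab replicate 4, where it was highest at 252 CPM, the macrophage sum was 3939 CPM and the red cell markers summed to 74.2 CPM, within the range of 25.2 to 147 CPM in young libraries. The part of these cells in the Hmox1 level was not tested.

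Gclc and Gclm encode the catalytic and the modifier subunit of glutamate–cysteine ligase, the rate-limiting enzyme of glutathione synthesis. Gclm (chromosome 3, 122245557 to 122270732, plus strand) was at 79.6, 83.0, 100, 88.2 and 78.4 CPM in young libraries, at 56.1, 26.4, 29.9 and 22.8 CPM in IgG2a libraries, and at 55.3, 122, 55.9 and 87.0 CPM in aPD1ab libraries. All 4 IgG2a libraries were below all 5 young ones. Gclm was the only one of the 10 genes for which these groups did not overlap over all libraries, and the share over all genes is not given here. It was lower in IgG2a than in young libraries, at a log2 fold change of −1.29 (SE 0.23, adjusted p = 0.0107), and at −1.63 without replicate 1 (SE 0.12, adjusted p = 5.90e-06). The call was kept under all 14 alternatives, with a highest adjusted p of 0.0418. In aPD1ab against IgG2a libraries the difference was 1.25 (SE 0.35, adjusted p = 0.109), and without replicate 1 Gclm was higher by 1.57 (SE 0.31, adjusted p = 0.0111, with a range of 0.00310 to 0.285 over 13 alternatives). Against young, the aPD1ab libraries scattered to both sides, with a difference of −0.09 (95% interval −0.58 to 0.40).

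Gclc (chromosome 9, 77754535 to 77794485, plus strand) was at 155, 141, 166, 168 and 136 CPM in young libraries, 156, 77.1, 85.3 and 80.1 CPM in IgG2a libraries, and 125, 161, 120 and 124 CPM in aPD1ab libraries. IgG2a replicate 1 sat among the young libraries and the other 3 were below all of them. The log2 fold change of IgG2a against young was −0.56 with replicate 1 (SE 0.20, adjusted p = 0.0722). Without it Gclc was lower, at −0.85 (SE 0.10, adjusted p = 8.24e-05, with a range of 8.24e-05 to 0.195 over 14 alternatives). Against IgG2a without replicate 1, Gclc was higher in aPD1ab libraries by 0.68 (SE 0.15, adjusted p = 0.0148), and with replicate 1 the difference was 0.41 (SE 0.24, adjusted p = 0.276). Over 13 alternatives that adjusted p ranged from 0.00779 to 0.552.

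Txnrd1 (chromosome 10, 82833951 to 82897712, plus strand) encodes the cytosolic thioredoxin reductase, a selenoprotein that keeps thioredoxin reduced. It was at 106, 100, 116, 107 and 98.5 CPM in young libraries, 129, 84.4, 90.4 and 66.2 CPM in IgG2a libraries, and 108, 172, 90.8 and 148 CPM in aPD1ab libraries. It had the smallest difference of the 10 between IgG2a and young, a log2 fold change of −0.13 (95% interval −0.47 to 0.22), and was lower, at −0.32 without replicate 1 (SE 0.11, adjusted p = 0.0337, the lowest of a range that reached 0.938). It was not called in aPD1ab against IgG2a libraries with replicate 1 (0.48, SE 0.26, adjusted p = 0.246) or without it (0.65, SE 0.25, adjusted p = 0.0748). limma voom alone called it there, at an adjusted p of 0.0398.

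**Figure D3:**
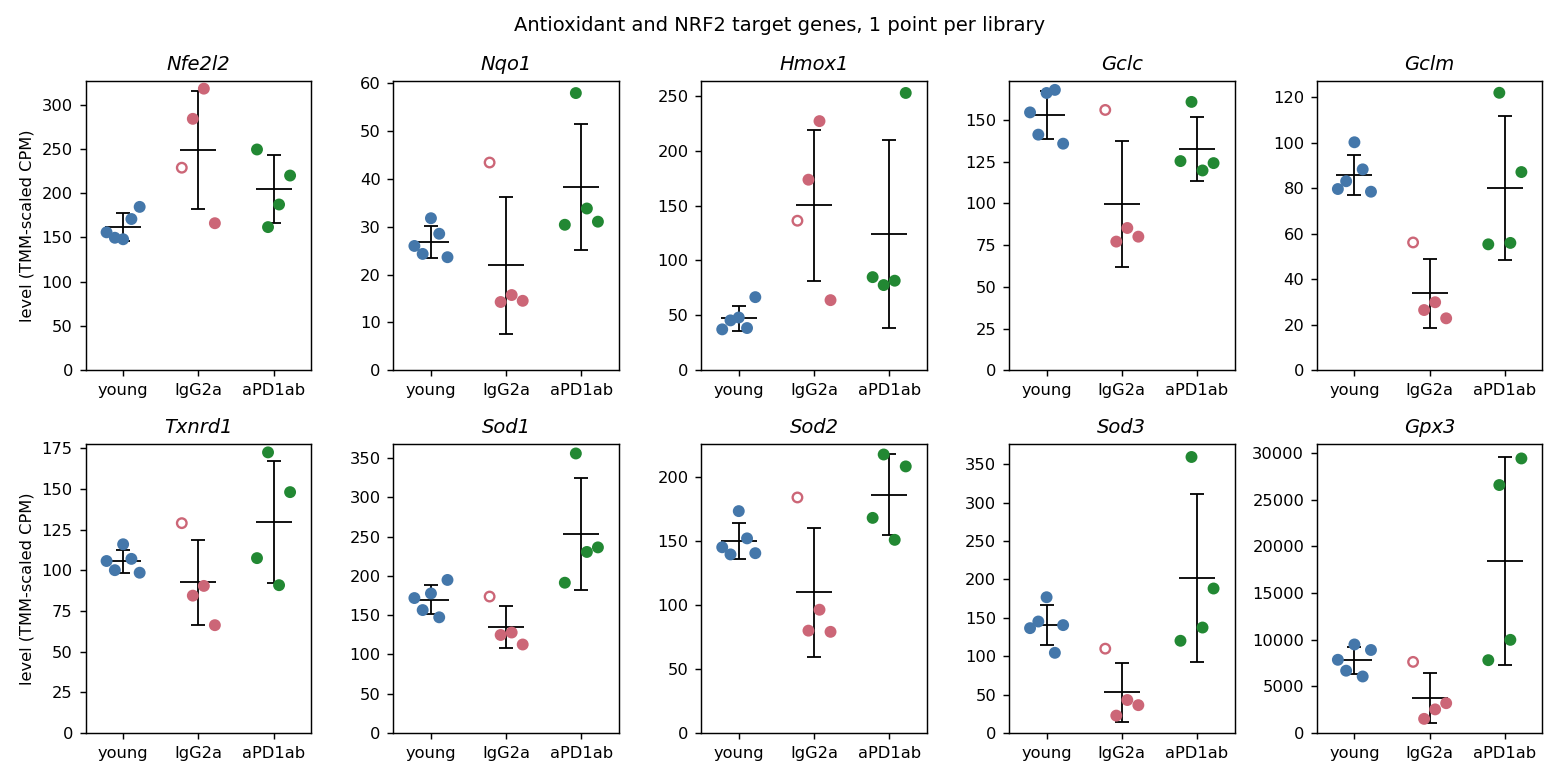
Level of each of the 10 genes in every library, in TMM-scaled CPM on linear axes that start at 0 and differ between panels. Points are libraries, the open point is aged IgG2a replicate 1, and black bars are the mean and SD of each group (5 young, 4 aged IgG2a, 4 aged aPD1ab). For 8 genes the 3 filled IgG2a points lie below all young and all aPD1ab points, and for Nfe2l2 and Hmox1 most IgG2a points lie above the young ones. The share of all genes with such separation is not given here. Without replicate 1, 23.5% of all genes were called lower in IgG2a vs young, and 17.1% higher in aPD1ab vs IgG2a.

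Sod1 (chromosome 16, 90220754 to 90226329, plus strand) was at 172, 156, 178, 147 and 195 CPM in young libraries, 174, 125, 128 and 113 CPM in IgG2a libraries, and 191, 356, 230 and 236 CPM in aPD1ab libraries. Every aPD1ab library was above every IgG2a library, and all but replicate 1 were above every young library. Sod1 was higher in aPD1ab than in young libraries by a log2 fold change of 0.59 (SE 0.17, adjusted p = 0.0335). That call was lost when any of young replicates 1 to 4 or aPD1ab replicate 4 was left out, with an adjusted p of 0.0105 to 0.0795 over 14 alternatives. Against IgG2a it differed by 0.91 (SE 0.23, adjusted p = 0.109) and without replicate 1 was higher by 1.02 (SE 0.23, adjusted p = 0.0152, with a range of 0.00319 to 0.285 over 13 alternatives). Against young, IgG2a libraries differed by −0.26 (SE 0.14, adjusted p = 0.189) and without replicate 1 were lower, at −0.40 (SE 0.11, adjusted p = 0.0104, with a range of 0.00539 to 0.366). Sod1 overlaps Scaf4, a gene on the opposite strand with up to 1031 counts in a library, and the strand setting of the counting is not given in the sources used here. Reads from the overlapping part cannot then be told apart, although Sod1 itself had at least 1674 counts in each library.

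Sod2 (chromosome 17, 13006846 to 13040063, plus strand) was at 145, 139, 173, 152 and 140 CPM in young libraries, 184, 79.9, 96.2 and 78.9 CPM in IgG2a libraries, and 168, 217, 151 and 208 CPM in aPD1ab libraries. As with Gclc, IgG2a replicate 1 was not below the young libraries and the other 3 were. The difference of IgG2a from young was −0.39 with replicate 1 (SE 0.23, adjusted p = 0.235), and Sod2 was lower, at −0.74 without it (SE 0.11, adjusted p = 0.000294, with a range of 0.000294 to 0.486). In aPD1ab against IgG2a the difference was 0.76 (SE 0.28, adjusted p = 0.133), and without replicate 1 Sod2 was higher by 1.09 (SE 0.18, adjusted p = 0.00761, with a range of 0.00298 to 0.312).

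Sod3 (chromosome 5, 52363791 to 52371418, plus strand) was at 137, 145, 177, 104 and 140 CPM in young libraries, 110, 22.6, 42.9 and 36.2 CPM in IgG2a libraries, and 120, 360, 137 and 188 CPM in aPD1ab libraries. It was lower in IgG2a than in young libraries, at a log2 fold change of −1.36 (SE 0.38, adjusted p = 0.0381) and at −1.98 without replicate 1 (SE 0.23, adjusted p = 0.000136). The call was lost when any library other than IgG2a replicate 1 was left out, with a highest adjusted p of 0.109. Against IgG2a, every aPD1ab library was higher, by a log2 fold change of 1.95 that was not called (SE 0.53, adjusted p = 0.109). Without replicate 1 Sod3 was higher by 2.54 (SE 0.45, adjusted p = 0.00858, with a range of 0.00289 to 0.285). The aPD1ab and young libraries overlapped, and their difference of 0.53 was not called (SE 0.30, adjusted p = 0.221).

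Gpx3 (chromosome 11, 54902453 to 54910377, plus strand) had the largest counts, 36982 or more in each library. It was at 7843, 6673, 9487, 6053 and 8894 CPM in young libraries, 7617, 1508, 2523 and 3189 CPM in IgG2a libraries, and 7803, 26586, 9982 and 29439 CPM in aPD1ab libraries. IgG2a replicate 1 was among the young libraries, and aPD1ab replicates 2 and 4 were far above all others. Gpx3 was higher in aPD1ab than in young libraries by a log2 fold change of 1.26 (SE 0.39, adjusted p = 0.0413). This call was lost when any young library, aPD1ab replicate 2 or aPD1ab replicate 4 was left out, with an adjusted p of 0.00363 to 0.118 over 14 alternatives. Every aPD1ab library was above every IgG2a library, by a log2 fold change of 2.33 (SE 0.64, adjusted p = 0.109), and without replicate 1 Gpx3 was higher by 2.90 (SE 0.60, adjusted p = 0.0118, with a range of 0.00306 to 0.285). In IgG2a against young the difference was −1.02 (SE 0.42, adjusted p = 0.108), and without replicate 1 Gpx3 was lower, at −1.62 (SE 0.27, adjusted p = 0.000737, with a range of 0.000297 to 0.2498).

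The 8 genes that were lower in IgG2a replicates 2 to 4 had the same direction as the proximal tubule markers in both comparisons that use IgG2a libraries. All 10 of those markers were lower in IgG2a than in young libraries, with a median log2 fold change of −1.84, and −2.57 without replicate 1. In aPD1ab against IgG2a the medians were 1.82 and 2.67. This direction was not particular to the tubule. The 10 podocyte markers had medians of −1.70 in IgG2a against young and 0.91 in aPD1ab against IgG2a (−1.82 and 1.12 without replicate 1). Endothelial and mesangial markers had medians of −0.52 and −1.11 in the first comparison, and −0.06 and −0.02 in the second. In aPD1ab against young, where Sod1 and Gpx3 were called higher, the median of the proximal tubule markers was −0.09 and none of the 10 was called. That of the podocyte markers was −1.04. In aPD1ab replicate 2, which had the highest level of Nqo1, Gclm, Txnrd1, Sod1, Sod2 and Sod3 of all 13 libraries, the proximal tubule sum was 20186 CPM and the podocyte sum 277 CPM. In aPD1ab replicate 4, with the highest Gpx3, the proximal tubule markers diverged. Slc5a2 was at 430 CPM against 105 to 204 CPM in young libraries, and Slc5a12 and Miox were also above all young libraries. Slc34a1, the phosphate transporter, was at 3354 CPM against 1958 to 3636 CPM in young libraries, and Cubn was also within its young range. Kap, an androgen-responsive gene of the tubule, was at 885 CPM against 4670 to 6804 CPM. Lrp2, Slc22a6, Slc13a3 and Aqp1 were also below all young libraries. The part of these shifts in the levels of the 10 genes was not tested.

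Other genes of redox biology were described in 7 lists of 83 genes. The background for every list count that follows is the share over all genes tested: in IgG2a against young 9.05% higher and 8.38% lower (22.1% and 23.5% without replicate 1), in aPD1ab against IgG2a without replicate 1 17.1% higher and 13.2% lower, and in aPD1ab against young 12.4% higher. The 9 NRF2 regulators held no gene called in IgG2a against young over all libraries, and their median log2 fold change was 0.07. Bach1, a repressor that competes for the antioxidant response element, differed by 0.52 (SE 0.21, adjusted p = 0.108) and without replicate 1 was higher by 0.65 (SE 0.17, adjusted p = 0.0118). Mafg, a small MAF partner of NRF2, differed by −0.29 (SE 0.12, adjusted p = 0.117), and by −0.32 without replicate 1 (SE 0.13, adjusted p = 0.0567). The most abundant of the list, Sqstm1, which binds KEAP1, differed by 0.07 (SE 0.20, adjusted p = 0.820), and by 0.04 without replicate 1 (adjusted p = 0.889). Nfe2l1, a relative of NRF2, differed by −0.19 (SE 0.17, adjusted p = 0.440) and without replicate 1 was lower, at −0.37 (SE 0.12, adjusted p = 0.0270). Without replicate 1, 1 regulator was called higher and 2 lower.

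The 20 other NRF2 targets moved in both directions in IgG2a against young: 7 were called higher and 2 lower over all libraries, and 9 higher and 7 lower without replicate 1. Blvrb, a biliverdin reductase, was higher by a log2 fold change of 1.46 (SE 0.16, adjusted p = 0.00206), and by 1.57 without replicate 1 (adjusted p = 6.05e-06). Slc7a11, the cystine importer that feeds glutathione synthesis, was higher by 2.28 (SE 0.39, adjusted p = 0.00938) from a low level, a mean of 0.17 CPM per kb over all libraries, and by 2.55 without replicate 1 (adjusted p = 3.14e-05). Ftl1, the ferritin light chain, was higher by 0.65 (SE 0.18, adjusted p = 0.0384) and by 0.70 without replicate 1 (adjusted p = 0.00405). Fth1, the heavy chain, differed by 0.23 (SE 0.18, adjusted p = 0.370) and by 0.19 without replicate 1 (adjusted p = 0.331). In aPD1ab against young, 10 of the 20 were called higher and none lower, among them Blvrb (1.09), Slc7a11 (1.64), Ftl1 (1.10) and Fth1 (0.63).

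Of 9 genes of glutathione synthesis and breakdown, 5 were called lower and none higher in IgG2a against young, with a median of −0.75, and without replicate 1 there were 7 lower and none higher. Gss, glutathione synthetase, was lower, at −1.19 (SE 0.24, adjusted p = 0.0158), and at −1.58 without replicate 1 (adjusted p = 3.96e-06). Dpep1 and Ggt1, enzymes of glutathione breakdown at the brush border of the proximal tubule, were lower, at −1.49 (SE 0.28, adjusted p = 0.0131) and −1.60 (SE 0.43, adjusted p = 0.0348), and at −1.76 and −2.39 without replicate 1 (adjusted p = 0.00104 and 5.88e-06). Without replicate 1, 5 of the 9 were called higher in aPD1ab than in IgG2a libraries, and none of the 9 was called in aPD1ab against young.

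Peroxidases and thioredoxin genes were mostly lower as well once replicate 1 was left out. Of 11 peroxidases tested, 1 was called higher (Prdx4, of the endoplasmic reticulum, 0.77, adjusted p = 0.0240) and 1 lower (Cat, catalase, −0.94, adjusted p = 0.0301) in IgG2a against young, and without replicate 1 these counts were 1 and 8, with Prdx4 at 0.88 and Cat at −1.30 (adjusted p = 0.000931 and 2.72e-05). Gpx1 and Prdx5, the most abundant of the list, differed by −0.22 and −0.39 (adjusted p = 0.454 and 0.182). Without replicate 1 Gpx1 differed by −0.38 (adjusted p = 0.0924) and Prdx5 was lower, at −0.68 (adjusted p = 0.000251). Both were higher in aPD1ab than in young libraries by 0.86 and 0.61 (adjusted p = 0.0318 and 0.0286). Of 12 thioredoxin and glutaredoxin genes, Msra, a methionine sulfoxide reductase, was lower, at −1.04 (adjusted p = 0.0328) and was the only one called, compared with 8 lower without replicate 1, Msra among them at −1.49 (adjusted p = 2.08e-05). Glrx2 differed by −0.28, and the abundant Txnip and Txn1 by 0.22 and −0.16 (adjusted p = 0.0834, 0.273 and 0.320). Without replicate 1 Glrx2 and Txn1 were lower, at −0.41 and −0.26 (adjusted p = 0.00250 and 0.0363), and Txnip differed by 0.15 (adjusted p = 0.321).

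The NADPH oxidase list holds subunits of the phagocyte complex that makes superoxide and the oxidases of other cells. Of 8 tested (12 listed), 3 were called higher and none lower in IgG2a against young, with a median of 0.89, and without replicate 1 there were 6 higher and 1 lower. Ncf1, a cytosolic subunit, was higher by 0.99 (SE 0.30, adjusted p = 0.0477), and by 1.22 without replicate 1 (adjusted p = 0.000252). Cybb, the catalytic subunit, differed by 0.80 (SE 0.34, adjusted p = 0.117) and Cyba by 0.31 (SE 0.17, adjusted p = 0.216), and without replicate 1 both were higher, by 1.04 (adjusted p = 0.00115) and 0.40 (adjusted p = 0.0333). The 1 gene called lower without replicate 1 was Nox4, an oxidase of kidney tubule cells, at −1.74 (adjusted p = 0.000122), and over all libraries it differed by −1.09 (adjusted p = 0.0732). In aPD1ab against IgG2a without replicate 1, 5 were called lower and 1 higher, the latter again Nox4, by 2.60 (adjusted p = 0.0152). Nox4 was named after its values were seen. Of the 10 macrophage markers, 9 were called higher in IgG2a against young, with a median of 1.33, and all 10 without replicate 1, with a median of 1.58. Their part in these counts was not tested.

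Of 9 genes that supply copper and selenium to these enzymes, 2 were called lower and none higher in IgG2a against young: Sephs2, which makes the selenium donor (−1.02, SE 0.25, adjusted p = 0.0274), and Sepsecs, which makes selenocysteinyl-tRNA (−0.43, SE 0.08, adjusted p = 0.0143). Selenop, the plasma selenium carrier, differed by −0.32 (SE 0.18, adjusted p = 0.223) and Atox1, a copper chaperone, by 0.31 (SE 0.11, adjusted p = 0.0730). Without replicate 1, 5 of the 9 were called lower and 1 higher. Sephs2 was then at −1.43 and Sepsecs at −0.46 (adjusted p = 8.99e-06 and 0.00127), Atox1 was the gene called higher, by 0.35 (adjusted p = 0.0139), and Selenop differed by −0.32 (adjusted p = 0.119).

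**Figure D4:**
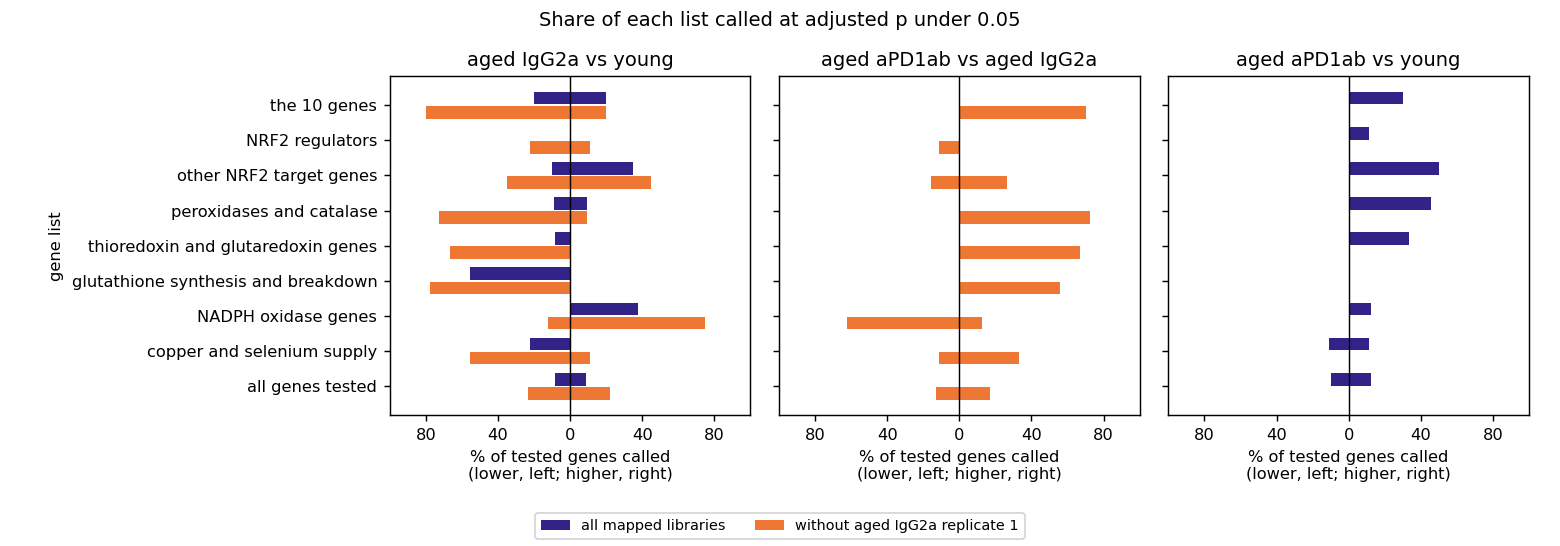
Percentage of the tested genes of each list called lower (left) or higher (right) at an adjusted p under 0.05 in the 3 comparisons, over all mapped libraries (dark) and without aged IgG2a replicate 1 (orange). The last row is all genes tested. In aged aPD1ab vs aged IgG2a no gene was called over all mapped libraries, so that panel has no dark bars, and in IgG2a vs young without replicate 1 the 10 genes, the peroxidases, the thioredoxin genes and the glutathione genes were mostly lower while 6 of 8 NADPH oxidase genes were higher.

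For each of the 10 genes, the other gene with the most similar course over the 13 libraries was found among 16330 expressed genes, by the root mean square difference of log2 CPM centred on each gene's mean. These were Zfp622 for Nfe2l2 (0.14), Rab17 for Nqo1 (0.16), Hilpda for Hmox1 (0.45), Pdha1 for Gclc (0.07), Mttp for Gclm (0.15), Aars for Txnrd1 (0.10), Map1lc3a for Sod1 (0.09), Ryk for Sod2 (0.10), Slc22a18 for Sod3 (0.11) and Cpn1 for Gpx3 (0.14). Hmox1 had the least close neighbour, and its own SD over the libraries was 0.94 on the log2 scale.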

How the data were processed

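Podocyte fractions were sequenced by the authors with TruSeq RNA kits, and the deposited table holds raw read counts per Ensembl gene, not normalized. The submitters' processing notes name HISAT2, featureCounts and mm10 (GRCm38). The annotation release and strand setting are not given in the sources used here. Of 15 columns, 13 were tied to a group by the number that heads the column, which a figure of the study prints beside a point of that group; the labels do not carry these numbers, and libraries were numbered in column order within a group; 2 columns could not be tied to a group and were not used. GENCODE M21 gave symbols for 45229 of 46078 genes. Each pair of groups was fitted in R 4.3.3 with edgeR 4.0.16 (robust quasi-likelihood, TMM, filterByExpr), with p adjusted by Benjamini-Hochberg over all genes tested and calls at an adjusted p under 0.05. CPM used TMM over 13 libraries, and levels per kb used the length of the principal transcript. Alternatives were DESeq2 1.42.0 and its size factors, limma 3.58.1 voom with sample quality weights, no filter, 1 fit of 3 groups, CPM without TMM, and each library left out in turn. The edgeR fit was tested on simulated data with the same dispersion for all genes and no outlying library. That test does not show how the fit behaves with a library such as IgG2a replicate 1.

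The 10 genes and all lists were chosen with earlier results of these data known. From each list the 2 genes with the smallest p in IgG2a vs young and the 2 with the highest level per kb were named. Markers of 9 cell types were used. Depth covers counting error only. Individual values of some genes of the lists are not reported here.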

Additional observations from a re-analysis of the deposited data

Results flagged for a closer look

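Of 30 sets of values (10 genes in 3 groups), 6 held a library far from the rest of its group, by the gap to the nearest library over the whole range of the group. Chance alone marks about 1 in 20 such sets if they are independent. These sets are not, since the 10 genes were read in the same libraries. Aged IgG2a replicate 1 was the highest of its group for Nqo1 (43.5 CPM, nearest 15.7), Gclc (156 CPM, nearest 85.3) and Sod2 (184 CPM, nearest 96.2). In the same library the proximal tubule markers summed to 6894 CPM and in the nearest library of its group to 2049 CPM. Its markers of the loop of Henle, distal tubule and collecting duct summed to 13958 CPM, the highest of all libraries. Their sums were 5917 to 6467 CPM in the other IgG2a libraries and 6634 to 9415 CPM in young libraries. Aged aPD1ab replicate 2 was the highest of its group for Nqo1 (58.0 CPM, nearest 33.8) and Gclc (161 CPM, nearest 125), with a proximal tubule sum of 20186 CPM against 7093 to 7729 CPM in the other 3. Aged aPD1ab replicate 4 was the highest for Hmox1 (252 CPM, nearest 84.8), and its macrophage sum of 3939 CPM lay inside the range of its group. The part of these markers in the outlying values was not tested.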

How the results depend on the processing

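Of 410 log2 fold changes of the 10 genes under alternatives, 334 kept their direction and their side of the threshold, 42 became called, 32 lost their call and 2 turned. Gclm in aPD1ab vs young (−0.09) turned to 0.050 without aPD1ab replicate 1 and to 0.043 without aPD1ab replicate 3, and ranged from −0.36 to 0.050 when 1 library was left out. In IgG2a vs young, DESeq2 called 4253 and limma voom 7423 genes against 2780, voom called 9 of the 10 genes and the fit with no filter 2, against 4. Leaving out 1 library gave 553 genes (without IgG2a replicate 3) to 7397 (without IgG2a replicate 1) and 2 to 10 of the 10 genes. All 5 young libraries and IgG2a replicates 2, 3 and 4, each left out, brought the count of genes to 553 to 1504, and all of these but replicate 4 brought the count of the 10 to 2. In aPD1ab vs IgG2a, where 0 were called, DESeq2 called 2087 genes and 4 of the 10, voom 6160 and 8, and 1 fit of all 3 groups 2863 and 5. Leaving out a library gave 0 to 4788 genes and 0 to 7 of the 10, and only IgG2a replicate 1 gave any. In aPD1ab vs young, leaving out a library gave 2369 (without aPD1ab replicate 4) to 3868 genes and 0 (without young replicate 4) to 4 of the 10, against 3578 and 3. Without young replicates 1, 2 or 3 or aPD1ab replicate 4, 1 of the 10 was called. Fewer libraries were tested in each such fit, and the cause of the other changes was not tested. For CPM without TMM scaling, 25 of 30 group means moved by less than 1 SD and 5 by more. No paired analysis was possible because the columns carry no replicate numbers of the labels and the groups are different mice.

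With 4 or 5 libraries a group, the calls of the pairwise edgeR fit of aPD1ab vs IgG2a depended on whether IgG2a replicate 1 was kept. Another 2 columns of the table could not be tied to a group.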
